A study of Mus musculus with 10 samples.

Results

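The lung of CD1 mice, an outbred laboratory strain, was 1 of 10 tissues profiled on a microarray that reads alternative splicing with exon-body and splice-junction probes. The lung sample was taken by its title, so 1 of the 10 samples is described here, over all 3126 splicing events measured in it. It was set against the median of the other 9 tissues, which were brain, heart, intestine, kidney, liver, muscle, salivary, spleen and testis. Every sample was pooled total RNA from CD1 mice, per the labels. The sources used here do not give the number, age, sex or treatment of the pooled animals. With 1 pooled sample per tissue there were no replicates, so every difference below describes these 10 arrays and carries no p-value.

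Lung tissue holds airway and alveolar epithelium, a dense capillary endothelium, smooth muscle, connective tissue and resident immune cells, and pooled RNA averages over all of them. In such bulk samples, fewer cells of a type and less RNA per cell cannot be told apart. Alternative splicing lets a transcript keep or leave out an exon, so a tissue can differ from others in how much of a transcript it holds and in which form. Each event on the array stood for 1 alternative exon (A) between 2 flanking exons (C1 and C2). The body probes C1 and C2 follow the amount of transcript whether the exon is kept or not, and the A probe follows the exon itself. The junctions C1:A and A:C2 form when the exon is included, and the junction C1:C2 forms when it is skipped. Each event also had a probe named INT, whose target is not stated.

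The probe values lay between 0 and 8.66 on a compressed scale whose base is not stated, so differences are given in units of that scale and never as folds. In lung they ran from 0 to 7.62 with a median of 2.14, and 1.92% of them were listed at exactly 0, within the range of 0.635% to 3.33% over all tissues. INT probes in lung had a median of 1.07, against 2.59 for C1 and 2.65 for C2. The tables used here do not pair the event numbers with genes. Events are therefore named by number, no sequence is shown, and the label lung was not checked against lung marker genes.

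Lung was among the tissues whose transcripts lay closest to those of the rest, and its place at the end depended on the normalization. Transcript level averaged C1 and C2 once the array's median had been set to 0, and a deviation was the lung value less the median over the other 9. The level deviation in lung was within 0.5 units for 71.6% of events, and its robust SD, a spread measure taken from the median absolute deviation, was 0.420, against 0.430 in muscle and 0.839 in testis. The junction index, the averaged inclusion junctions less the skipping junction, rises with exon inclusion. Its deviation had a robust SD of 0.304 in lung, against 0.319 in intestine and 0.528 in testis. For the A probe the spread was 0.411 in lung, against 0.437 in intestine. After quantile normalization lung was next to the lowest in all 3, with 0.455 for level (muscle 0.453), 0.329 for the junction index (intestine 0.313) and 0.430 for A (intestine 0.428).

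Lung was also seldom the extreme tissue. It had the highest level of the 10 tissues in 165 events, 5.28% of them, and the lowest in 213, 6.81%, where only kidney had fewer, 203. Testis was the highest in 21.8%. Lung had the highest junction index in 118 events and the lowest in 171, and the highest A value in 126 and the lowest in 222. Lung was the tissue least often highest in all 3 measures. That place held after quantile normalization for the junction index (147 events) and the A probe (177) but not for level. There lung was highest in 262 events, above muscle (235), intestine (251), kidney (255) and heart (259).

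**Figure D1:**
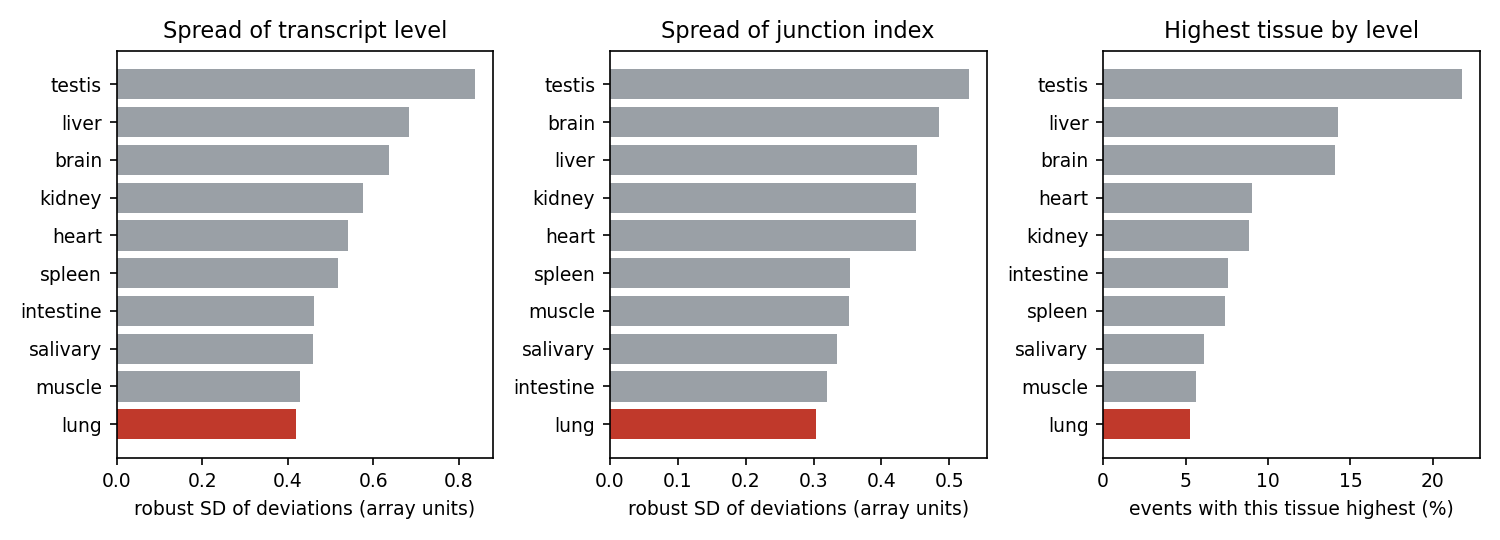
The left and middle plots give the robust SD of the deviations of transcript level and of the junction index in array units for each tissue, and the right plot the percentage of events in which that tissue had the highest level. Lung (red) has the shortest bar in each, at 0.420, 0.304 and 5.28%, with arrays centred on their medians. After quantile normalization muscle had a slightly lower level spread (0.453 against 0.455) and lung was no longer the tissue least often highest by level.

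Against this narrow background 20 of 3126 events, 0.64%, were higher in lung by transcript level and 1 event, 0.032%, was lower. The threshold was 2.15 units, which is 4 robust SDs of the level deviations of all events and all tissues. The last event inside it deviated by 2.18 and the first outside by 2.10, and a further 27 events lay between 1.61 and the threshold. Every other tissue also had more high than low calls by level, from 24 and 3 in muscle to 210 and 5 in testis. The direction is therefore not particular to lung, which had the fewest high calls. Values stop at 0, and the part of this limit in the difference was not tested. Over all events 167 deviated above 1 unit in lung and 72 below -1 unit. Quantile normalization kept the 20 events and added 11, so 31 were higher. With 4 robust SDs of the lung deviations alone, 41 were higher and 4 lower.

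Event Ben992 stood apart from all others in lung. Its flanking exon C1 read 7.41 in lung and from 1.97 to 3.10 elsewhere, with a median of 2.27. Its C2 read 7.01 in lung and from 0.277 to 1.51 elsewhere, with a median of 0.909. Lung was thus the only tissue with high signal, and the others did not come near it on either flank. The level in lung was 5.59 units above the median of the others and 5.15 above the next tissue. The median of C2 in the other tissues lies under that of all INT probes, 1.21, so these sizes are not exact. The alternative exon of Ben992 followed, with A at 7.09 in lung and 1.20 to 2.46 elsewhere. The inclusion junctions read 7.11 (C1:A) and 7.11 (A:C2) in lung, against highest values of 3.99 and 3.53 in other tissues. The skipping junction C1:C2 was higher by much less, 3.46 in lung against 1.91 to 2.41 elsewhere. Its INT probe was the highest of the 10 tissues too, at 3.78 against 1.87 to 3.12. The junction index deviated by 2.83, but C2 of the other tissues was too dim for an exon call.

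Event Ben2508 was the next highest, and here the skipping junction rose with the flanks. C1 read 5.72 in lung and 0 to 1.89 elsewhere, and C2 read 4.96 in lung and 0 to 3.09 elsewhere. The C1:C2 junction read 5.70 in lung, against a median of 2.15 and a highest value of 2.91 in the other tissues. The exon probe A read 2.84 in lung, with 0 to 2.06 elsewhere, and A:C2 read 2.04. Lung was again above every other tissue in all 6 of these probes, but least so in the probes that contain the exon. The level deviated by 3.83, with C1 at 5.53 and C2 at 2.34. The median of C1 in the other tissues, 0.153, is likewise under the INT median, which makes the size for C1 inexact. In salivary all 7 probes of this event were listed at 0. This happened for 6 events in salivary, 4 each in heart and liver, 2 each in kidney and muscle, 1 each in brain and testis, and 0 in lung.

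Event Ben3294, named for its A probe, was the third highest by level, with a deviation of 3.37. Its C1 read 5.88 in lung and 1.28 to 2.18 elsewhere, whereas its C2 read 5.77 in lung but 6.24 in testis. The 2 flanks thus placed lung differently: first by a wide margin on C1, and behind testis on C2. Its exon read 5.11 in lung and 1.13 to 1.81 elsewhere, so the A probe, like C1, placed lung first.

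Both flanks were high in the 20 events, which the choice by level, the mean of C1 and C2, largely fixes in advance. C1 and C2 both passed the threshold in 17 of the 20, and their median deviations were 2.63 and 2.89. Over all events of the lung array, most of them not called, the C1 and C2 deviations differed with a robust SD of 0.315. The flanks of a called event could differ by more, as in Ben2508, where they deviated by 5.53 and 2.34. The exon and junction probes rose in most of the 20 events but by less. A was higher in all 20, by 0.0614 to 5.22 with a median of 1.59, and passed its own threshold of 2.16 in 8. The medians were 1.26 for C1:A, 2.02 for A:C2 and 2.29 for C1:C2. All 6 exon and junction probes deviated by at least 2.11 in 3 events. The INT probes did not follow, with a median deviation of 0.21 and 10 values on each side of 0. The body index, which sets A against its flanks, was negative in 18 of the 20, but it contains the probes that chose these events. The junction index shares no probe with level, and its deviation was negative in 11 and positive in 9. Over all 3126 events it was negative in 1721 and positive in 1404, a similar split.

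**Figure D2:**
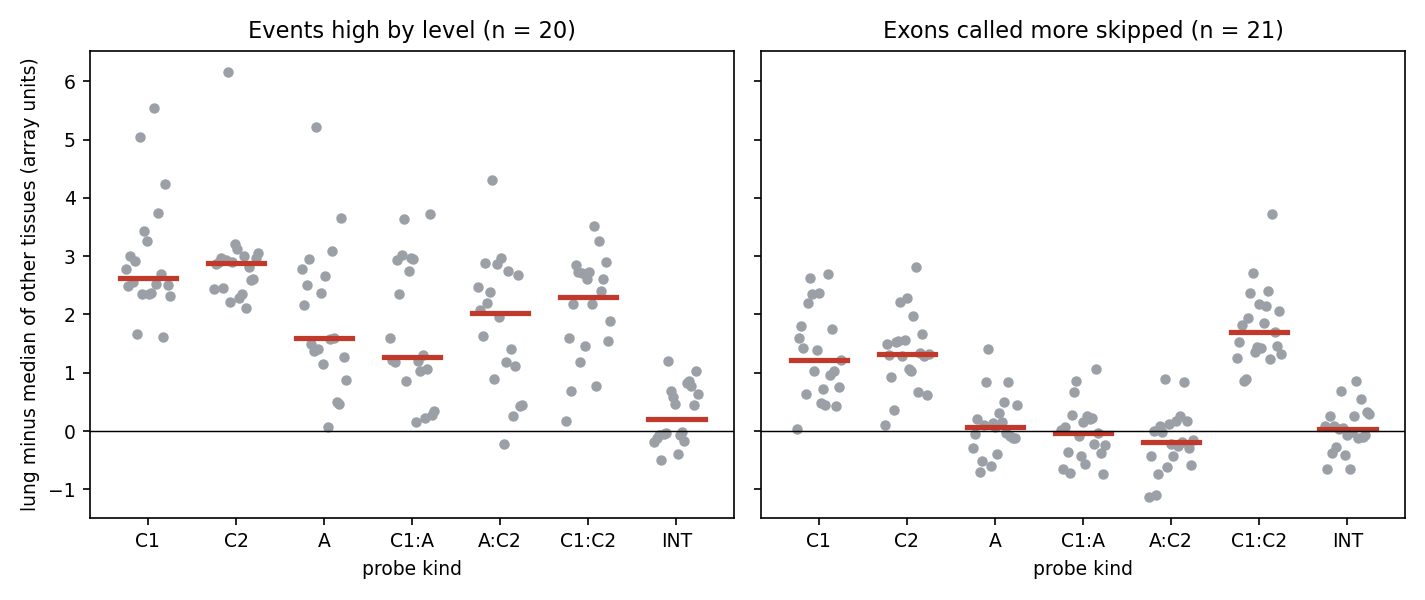
Each point is the deviation in lung of 1 probe from the median of the other tissues, in array units, by probe kind, and the red bars are medians. In the 20 events high by level the medians of all kinds but INT (0.21) exceed 1 unit, with the flanks highest (2.63 and 2.89). In the 21 exons called more skipped, C1, C2 and C1:C2 lie above 0 while A, C1:A and A:C2 have medians of 0.0614, -0.0354 and -0.195.

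Heart was the tissue most often next to lung in these events. Lung had the highest level of the 10 tissues in 15 of the 20, in 13 of them by more than 1 unit, and the gap to the next tissue had a median of 1.90. Heart was the next tissue in 9 of those 15. Of the remaining 5 events, heart was the highest in 4 and liver in 1. Heart was therefore the highest tissue other than lung in 13 of the 20 events, 65%. Among all 165 events in which lung was the highest, heart was next in 40, 24.2%. That share compares with the 9 of 15 and not with the 13 of 20, which include events with another tissue highest. After quantile normalization heart was the highest other tissue in 18 of 31 lung-high events, 58.1%. The level of these 20 events, each tissue set against its own other 9, deviated by a median of 0.595 in heart, 0.041 in salivary, 0.0426 in spleen and 2.68 in lung, and these comparisons share most of their samples. Set directly against heart, lung was higher in 16 of the 20 events, with a median difference of 2.01. Against salivary it was higher in all 20, by 1.97 to 5.25, and against spleen in all 20, by 0.747 to 5.31. The events were chosen for a high lung level against these same 9 tissues. That choice largely fixes in advance the median in lung and the sign of these direct differences.

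**Figure D3:**
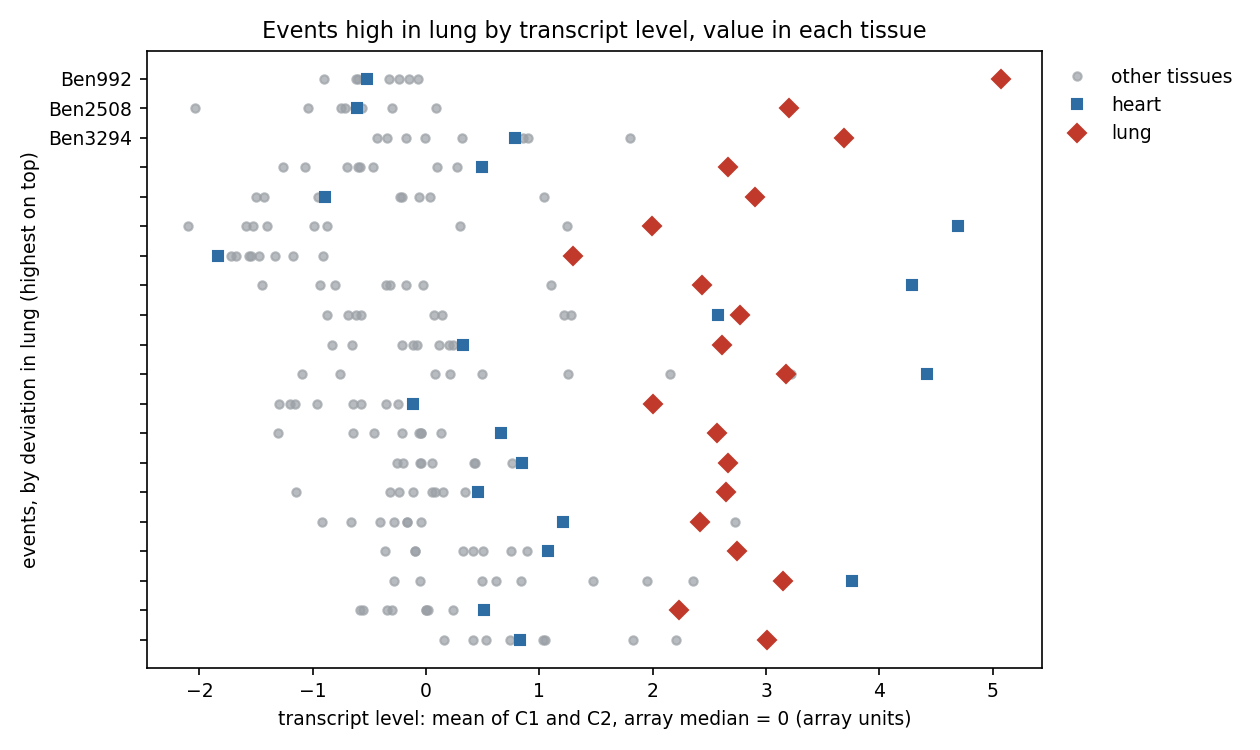
Each line is 1 of the 20 events higher in lung, ordered by its deviation, and the points are the transcript level in each tissue in array units with every array median at 0. Lung (red) is the rightmost point in 15 events and heart (blue) in 4, and Ben992 has the widest gap to the next tissue, 5.15 units.

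The low side held a single event. In Ben3898 the level was 1.73 in lung as deposited and 2.40 to 5.34 elsewhere, with a median of 3.92, so lung was below every other tissue. C1 read 2.01 in lung against 2.68 to 5.81, C2 read 1.45 against 2.11 to 4.87, and the skipping junction C1:C2 read 1.71 against 2.39 to 5.17. The A probe was not set apart, at 2.10 in lung and 1.76 to 4.48 elsewhere. The level deviation of -2.23 lay just past the threshold. It ranged from -2.45 to -2.03 with single tissues left out and was -2.18 against the mean of the others, so its size held but its call did not. The call was lost without heart, kidney, liver or testis, at -2.03 in each, and 0 events were low without heart, kidney or liver or against the mean. Without testis 1 other event was low, 2 events were low without intestine, muscle or salivary, and 3 without brain or spleen.

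The A probe asks whether the alternative exon itself was more abundant. It was higher in lung in 17 of 3126 events, 0.544%, and lower in 0 events, 0%. Of these 17, 8 were also high by level, among them Ben992 and Ben3294. Lung was the highest tissue in 13 of the 17. The other 9 did not pass by level, but their flanks were higher as well, with level deviations from 0.398 to 2.08 and a median of 1.51. None of the 17 was called more included or more skipped by the exon rule given below. Such calls were rare, with 3 of 2381 testable exons more included and 21 more skipped. Some of the 17, such as Ben992, had flanks too dim for an exon call. The smallest level deviation among the 17 was that of Ben3396, chosen after its values were seen. Its exon read 3.98 in lung, 3.91 in muscle and 2.82 in salivary but 1.01 to 2.27 in the rest. C1:A read 4.11 in lung and 1.43 to 3.89 elsewhere. Its level deviated by 0.40, and A:C2 was dim in every tissue, at 0.290 in lung and at most 0.964 elsewhere. The number of high A probes fell to 10 against the mean of the other tissues. With brain, intestine, salivary or spleen left out of the comparator 1 A probe was low.

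Exon inclusion was compared next, since alternative splicing is the subject that the series title names. An exon was called when its junction index deviated by at least 1.61 units, its body index deviated in the same direction, and both flanks exceeded the lowest 25% of values. In lung 2381 exons met the flank filter. Of these 21, 0.882%, were called more skipped and 3, 0.126%, more included. The last skipped exon inside the threshold deviated by -1.61 and the first outside by -1.56. Heart, intestine, kidney, liver, salivary and testis also had more skipped than included calls, so the direction is not particular to lung.

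No exon call in lung survived a stricter filter on signal. When the mean inclusion junction and C1:C2 each had to exceed the 95th percentile of all INT probes (3.13 before centring, applied to centred arrays), in lung or in the median of the others, 261 exons could be tested and 0 were called in either direction. The other 9 tissues kept from 0 to 12 inclusions and from 1 to 8 skips, with 0 and 2 in salivary, 1 and 3 in spleen, and 12 and 3 in heart. In lung Ben2150 and Ben55 met this filter and the index threshold, and their body index had the opposite sign. With the percentile taken separately in lung and in the median of the others, 1 of the 21 skipped exons remained. At 3 robust SDs, and still with the filter, 1 exon was called more skipped, and it was not among the 21. When A:C2 alone stood for inclusion, 11 skipped exons were called.

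The probes of the 21 skipped exons are given as a description, because the call itself uses them. It takes C1:A, A:C2 and C1:C2 through the junction index, and A, C1 and C2 through the body index. In the 21 exons the skipping junction was higher in all 21, by 0.853 to 3.72 with a median of 1.71. C1 was higher in all 21 with a median of 1.22, and C2 in all 21 with a median of 1.33. The A probe was higher in 11 and lower in 10, with a median of 0.0614. C1:A was lower in 11 with a median of -0.0354, and A:C2 was lower in 13 with a median of -0.195. Over all 3126 events A was lower in 1713, C1:A in 1795 and A:C2 in 1846, so these counts lie near the shares over all events. As deposited, the mean inclusion junction of the 21 exons had a median of 0.868 in lung and 1.12 in the others. It did not reach the INT median of 1.21 in 12 of the 21 exons in lung and in 12 in the others, against 403 and 332 of the 2381 testable exons. Whether such low readings limited a further fall of these junctions was not tested. The C1:C2 junction passed the 95th percentile of the INT probes in 15 of the 21 in lung and in 1 in the median of the others, against 484 and 412 of the 2381 testable exons.

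The strongest skipped call was Ben3399. Its C1:C2 junction read 5.04 in lung and 5.18 in salivary but 0.889 to 2.25 in the remaining tissues. Lung and salivary stood together and apart from the other 8. Its index deviated by -2.74, its level by 1.55 and its body index by -0.61. The A probe was also higher, at 2.01 in lung and 2.03 in salivary against at most 1.63 elsewhere, so the exon did not fall. In Ben4064 the C1:C2 junction read 2.95 in lung and 0.344 to 1.49 elsewhere, and lung stood alone. Both inclusion junctions were lower, C1:A by -0.74 and A:C2 by -0.58, and the index deviated by -2.58. The exon body barely differed, at 1.31 in lung and 0.928 to 1.89 elsewhere. All probes of Ben4064 read below 3 in lung, under the level of the stricter filter.

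Exons with a junction index below the threshold were more frequent where the transcript was higher in lung. The junction index shares no probe with level, but the call does, since its body index contains C1 and C2, so the index is given here without the body index. Of 1683 testable exons whose level deviated by -0.5 to 0.5 units, 3 had an index past the threshold, 0.178%. The share was 1.89% of 265 exons between 0.5 and 1, 7.32% of 82 between 1 and 1.5, and 17.4% of 46 above 1.5. It was 0 of 240 exons between -1 and -0.5 and 1 of 65 at or below -1, the exon of Ben2150. With the sign of the body index required, the count fell to 0 in the lowest bin and to 2 between -0.5 and 0.5, and the bins above 0.5 did not change. Upward shifts of the index were also more frequent away from a level deviation of 0. The index deviated above 1 unit in 4 of the 1683 exons, and in 4 of 265, 5 of 82 and 3 of 46 in the higher bins. It did so in 5 of 240 and 7 of 65 in the lower bins. Below -1 unit the counts were 12, then 17, 18 and 15, and 0 and 3.

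Among the 21 called exons the level deviation was positive in 20, with a median of 1.16, and passed its own threshold in 3. In the other 9 tissues, which leave lung out, the index and the level of these 21 exons correlated negatively in 14, with a median r of -0.58 over 9 tissues. Over all 2381 testable exons the median r was 0.17 and 42.5% were negative. These values describe single exons over tissues that share arrays and probes. The part of the low inclusion signal in this relation was not tested.

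Lung had the lowest index of the 10 tissues in 16 of the 21 skipped exons, but by more than 1 unit in only 5, and the median gap to the next tissue was 0.441. In the other 5 exons heart had the lowest index in 4 and testis in 1. Over all events heart was the tissue with the lowest index most often, in 499 of 3126. Lung and heart are each set against largely the same samples. The index deviation of the 21 exons had a median of -1.89 in lung and -0.376 in heart. Among skipped exons where heart went further, Ben1267 was singled out after its values were seen, as the 1 exon of the 21 in which A, C1:A and A:C2 each deviated by less than -0.5. Its C1:C2 junction read 4.46 in lung and 4.31 in heart against 2.65 to 3.89 elsewhere. Its exon read 2.97 in lung and 2.21 in heart, with a median of 3.54 over all tissues other than lung. The deviations of A, C1:A and A:C2 were -0.51, -0.72 and -0.74. Its index deviated by -1.72.

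**Figure D4:**
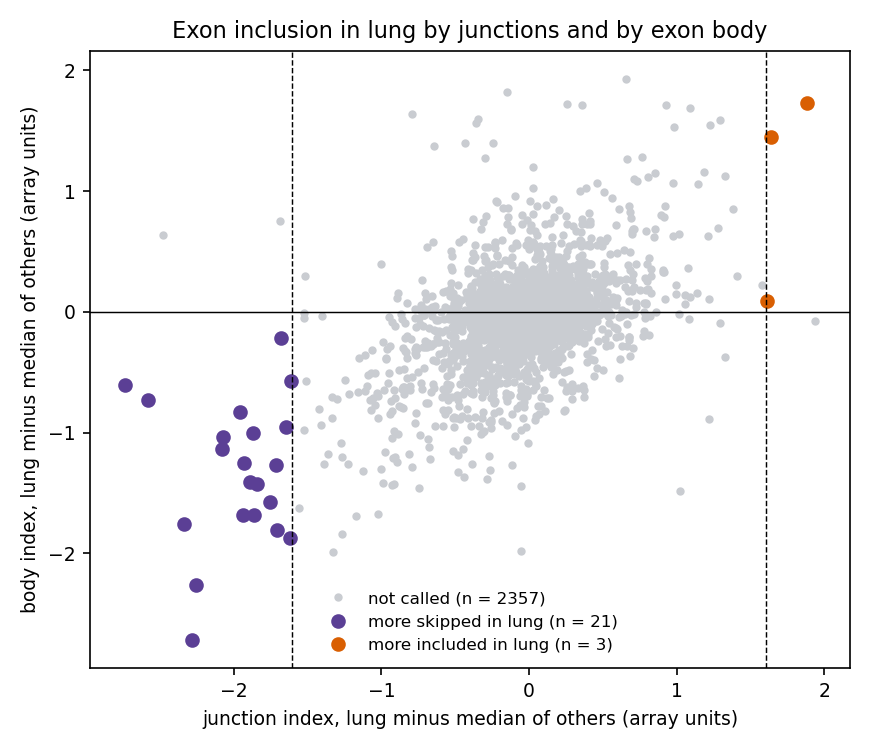
Each point is 1 of the 2381 testable exons, with the deviation of its junction index in lung on the horizontal axis and of its body index on the vertical axis, in array units, and dashed lines at the call threshold of 1.61. The 21 skipped exons lie at the lower left and the 3 included exons at the right, and r over all exons is 0.50.

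In lung and in the median of the others, all 3 included exons had a mean inclusion junction under the 95th percentile of INT probes. The same held for 1834 of the 2381 testable exons, so it does not set these 3 apart. Of the 3 included exons, 2 had nearly identical flank values. In Ben2471 the C1:C2 junction read 2.95 in lung, 2.81 in brain, 3.19 in salivary and 3.69 in spleen but 4.58 to 5.60 in the remaining tissues. C1 and C2 followed, at 3.31 and 3.55 in lung against medians of 5.09 and 5.35. The tissues thus fell into a low and a high group, with lung in the low one. The exon probe A was 1.44 in lung and 1.17 to 1.86 elsewhere, with no separation. The index deviated by 1.88, of which C1:C2 gave the larger share with a deviation of -2.03, and the level deviated by -1.83. In Ben2472 the index deviated by 1.64 in the same way, with C1:C2 at 2.89 in lung and a median of 4.96 elsewhere. The flanks of Ben2471 and Ben2472 differed by at most 0.293 (C1) and 0.272 (C2) in any tissue, against medians of 2.47 and 2.54 for 2289 pairs of consecutive event numbers, so these 2 calls are not separate observations of the flanks.

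The remaining included exon was Ben627, with an index deviation of 1.61 at the threshold itself and a body index deviation of 0.09. Its exon read 3.65 in lung and 1.49 to 3.42 elsewhere. Its C1:C2 junction read 1.02 in lung, 3.04 in muscle and 3.05 in spleen, and 0.812 to 1.81 in the remaining tissues, so muscle and spleen stood apart from lung. The number of included exons was 6 without muscle in the comparator and 5 without salivary. With C1:A as the only inclusion junction 5 exons were called included, 0 of them among these 3.

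The junction index passed its threshold with the body index of opposite sign in 3 further exons, which were named because they were so few and after their values were seen. Among the 261 exons that met the stricter filter, Ben2150 had the lowest and Ben55 the highest index deviation in lung. In Ben2150 both inclusion junctions were lower, C1:A at 3.74 in lung with a median of 5.08 elsewhere and A:C2 at 2.62 with a median of 4.25. The skipping junction was higher, at 4.02 in lung against 1.98 to 3.39 in the tissues other than salivary, where it read 7.30. The index deviated by -2.48. Lung and salivary were the only tissues below 0 on the deposited index, at -0.84 and -2.45, with 0.347 to 2.60 elsewhere. The body index went the other way, by 0.64, because the flanks were lower by -1.06 and -1.31 and A by only -0.55.

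Ben55 had its index shift in the other direction. Lung was the highest tissue in A, at 6.03 against 2.39 to 4.34, and in both inclusion junctions, at 5.56 and 5.87 against highest values of 4.40 and 4.58. The skipping junction was bright in every tissue and read 4.50 in lung, within the range of 3.54 to 4.66 elsewhere. The index deviated by 1.94 and the level by 2.62, and the body index by -0.07. The exon and its flanks were thus higher together while the skipping junction stayed in the range of the other tissues. In Ben2500 the index deviated by -1.69 through C1:C2, at 4.36 in lung and 4.68 in muscle with a median of 2.68 over all tissues other than lung, while A and both inclusion junctions deviated by 0.46, 0.10 and 0.23.

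**Figure D5:**
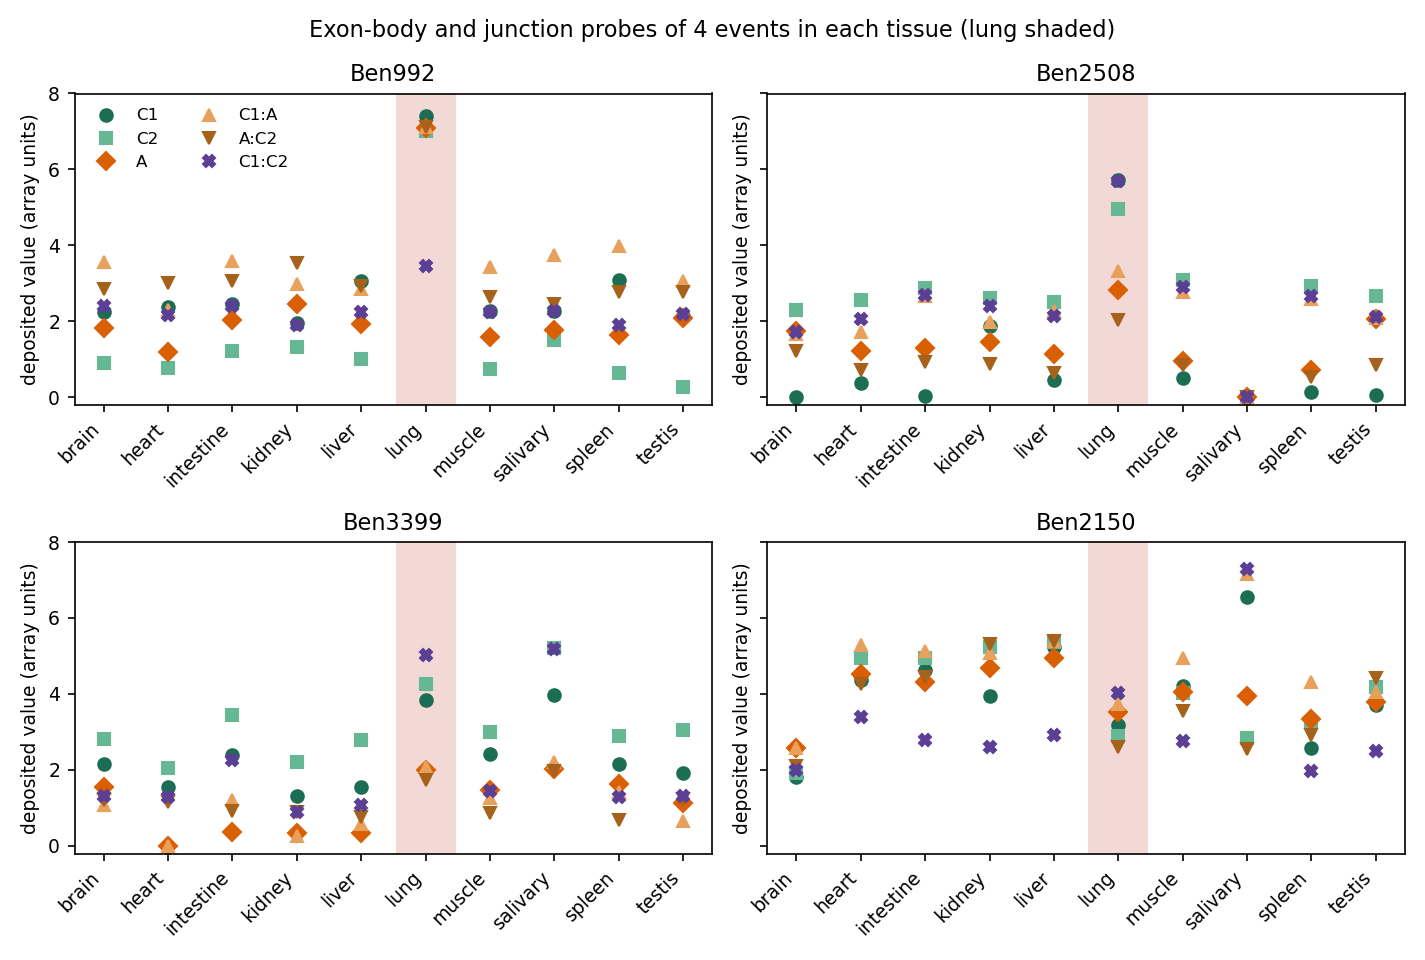
Points are the deposited values of the 6 exon and junction probes of 4 events in each tissue, in array units, with lung shaded. Ben992 has 5 probes near 7 in lung and C1:C2 at 3.46, Ben2508 has C1 and C1:C2 near 5.7, Ben3399 has C1:C2 near 5 in lung and salivary, and Ben2150 has C1:C2 highest in salivary (7.30) and next highest in lung (4.02).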

How the data were processed

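The table of probe values deposited by the authors was used as given, with 21882 values per sample treated as a score. The scale base, background correction, normalization and probe sequences are not stated in the labels or the table. The roles of the probes were read from their suffixes. No sample column was left unused.

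Array medians were set to 0. A deviation is the value in lung minus the median of the other 9 tissues. Thresholds were 4 robust SDs (median absolute deviation times 1.4826) of the deviations of all events and tissues for each quantity. No test was run, because each tissue had 1 sample; the small number of arrays is what limits precision. Named events were, per quantity, at most the 2 highest and 2 lowest past the threshold, with exceptions stated. The measures and rules were chosen with earlier results of these data known. Level and index deviations were checked against the thresholds on simulated data. There every tissue had the same profile, raised away from the limit at 0, apart from random noise and the shifts added to lung. The check covers the arithmetic and cannot show how calls behave near that limit or among real tissue differences. The flank filter, the sign of the body index and the A calls were not part of that check. Python 3.11.15, numpy 2.4.6, pandas 2.3.3 and matplotlib 3.10.9 were used.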

Additional observations from a re-analysis of the deposited data

How the results depend on the processing

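No paired analysis was possible because no tissue has more than 1 sample. The 9 named deviations kept their sign in all settings run for them, and 1 of them moved by more than a robust SD, the index of Ben3399, at -3.26 after quantile normalization. Columns as deposited moved none of the 6 counts by over 1.5 times. The junction and body indices are differences within an array, so centring cannot change them and the exon counts could hardly move. Quantile normalization gave 31 events higher by level. The mean of the other tissues gave 0 events lower by level and 10 A probes higher. Leaving each tissue in turn out of the comparator, events higher by level ranged from 18 to 22 and lower from 0 to 3, included exons from 2 to 6, skipped exons from 16 to 22, and A probes from 14 to 20 higher and 0 to 1 lower.

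Other thresholds change counts by construction. At 3 robust SDs, 47 events were higher and 6 lower by level, 12 exons included and 41 skipped, and 42 A probes higher and 8 lower. At 6 robust SDs these were 4 and 0, 0 and 2, and 2 higher A probes. At 4 robust SDs of lung alone they were 41 and 4, 12 and 41, and 41 and 6. The filter on junctions at the 95th percentile of the INT probes left 0 included and 0 skipped exons, with 261 of 2381 exons still testable. With settings chosen after seeing the data, it left 0 and 1 at 3 robust SDs, and 0 and 1 with the percentile taken separately in lung and in the others. With A:C2 alone for inclusion 11 exons were skipped, with C1:A alone 5 were included, and with the body index as calling index 9 were included. The cause of these shifts was not tested.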

Other observations

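Among all probes of the lung array, 128 exceeded the median of the other 9 by at least 2.11 units and 8 fell short of it by as much. The body probes supplied 25 high calls from C1, 27 from C2 and 19 from A, and the junctions 19 from C1:A, 18 from A:C2 and 19 from C1:C2. INT gave 1 high call and 0 low ones, with a robust SD of 0.309 in lung. The median deviation in lung was lower for the inclusion junctions (-0.0787 for C1:A and -0.0934 for A:C2) than for the flanks (0.00588 for C1 and -0.0258 for C2).

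Consecutive event numbers occurred among the events called in lung. Ben3432 and Ben3433 were both high by level, by 2.63 and 2.69, with flanks that differed by at most 0.870 (C1) and 0.844 (C2) in any tissue. Ben3433 and Ben3434 were also both called, the latter by its A probe, but their flanks differed by up to 4.28 (C1) and 4.45 (C2), with r of 0.08 and 0.02 over 10 tissues. Of the 2289 pairs of consecutive numbers in the table, 9 differed by less than 0.5 units on both flanks. Whether such events belong to 1 gene is not given in the sources used here. These events were named after their values were seen.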
